A study of Mus musculus with 24 samples.

Results

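The complement genes C1qa, C1qb, C1qc, C3, C4b, C3ar1 and C5ar1 were followed across the brain cells of motor cortex and dorsal striatum. These 7 genes were taken by symbol from the 54235 features of the deposited matrices, and all 7 had reads in both regions. C1qa, C1qb and C1qc encode the A, B and C chains of C1q. C3 encodes the central component of the cascade and C4b encodes complement component 4. C3ar1 and C5ar1 encode the receptors for the peptides C3a and C5a.

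Complement is a cascade of plasma and tissue proteins that tags surfaces for removal. C1q binds a target and its associated proteases cleave C4, after which an assembled convertase cleaves C3 and then C5. The large fragment C3b stays on the target, where phagocytes recognise it through complement receptors, and the small fragments C3a and C5a signal through G protein-coupled receptors. In the brain, microglia are known as the main source of C1q, and C1q and C3 are known for marking synapses that microglia then remove.

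The study asked how motor learning changes the transcriptomes of cells in these 2 regions. Fos-CreER::Ai9 mice provided primary motor cortex and Arc-CreER::Ai9 mice provided dorsal striatum, so region and driver line cannot be told apart. In these lines an activity-dependent promoter drives a Cre recombinase that acts after 4-hydroxytamoxifen, and Ai9 is a Cre-dependent tdTomato reporter. Trained mice practised a forelimb reaching task for 2 days (early) or 8 days (late), controls were not trained, and every group including the controls received 4-hydroxytamoxifen, with tissue taken 3 days after labelling. The labels give neither strain background nor age. Tissue of each hemisphere was pooled from 2 mice, digested with papain at 37 °C and freed of dead cells before 10x Genomics 3′ libraries were made. Replicates were therefore pools of 2 mice, with 2 pools per region and stage and 12 in all.

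After filtering, 98612 cells remained, 47985 from motor cortex and 50627 from dorsal striatum, with a median of 2778 UMIs (unique molecular identifiers, each standing for a captured RNA molecule). Libraries held between 5260446 and 30470621 UMIs, and the shallowest came from the left side of control 1 in motor cortex, with 541 barcodes. For dorsal striatum control 1 the counts of the left hemisphere were used, and those of the right hemisphere were not analysed here. Cells were clustered without the complement genes, and a cluster was called "-like" a cell type only from marker genes. Levels are given as CPM, the UMIs of a gene summed over the cells of a class in a pool, divided by all UMIs of those cells and multiplied by 1e6. The labels name kit versions v2 and v3 without saying which library used which. Libraries fell into a set A and a set B by the cell barcodes they shared, with a median of 96 shared barcodes between A libraries, 5 between B libraries and 1 between an A and a B library. Replicate 1 of the control and late pools of both regions was of set A, and the other 8 pools, all early pools among them, were of set B.

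The 3 genes of C1q were the most abundant members and were read almost wholly from myeloid cells. In the pools, 94.0% to 99.1% (median 98.6%, n = 12) of all C1qa, C1qb and C1qc UMIs came from microglia-like and perivascular macrophage-like cells, which were 10177 and 597 of the cells in motor cortex and 5028 and 258 in dorsal striatum. Microglia-like cells alone held 93.1% of the 686755 C1q UMIs. The other 4 members divided into genes of the same myeloid cells (C3ar1 and C5ar1), a gene of macrophages and of glial cells, striatal astrocyte-like cells foremost (C4b) and a gene of ependymal-like cells (C3).

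**Figure D1:**
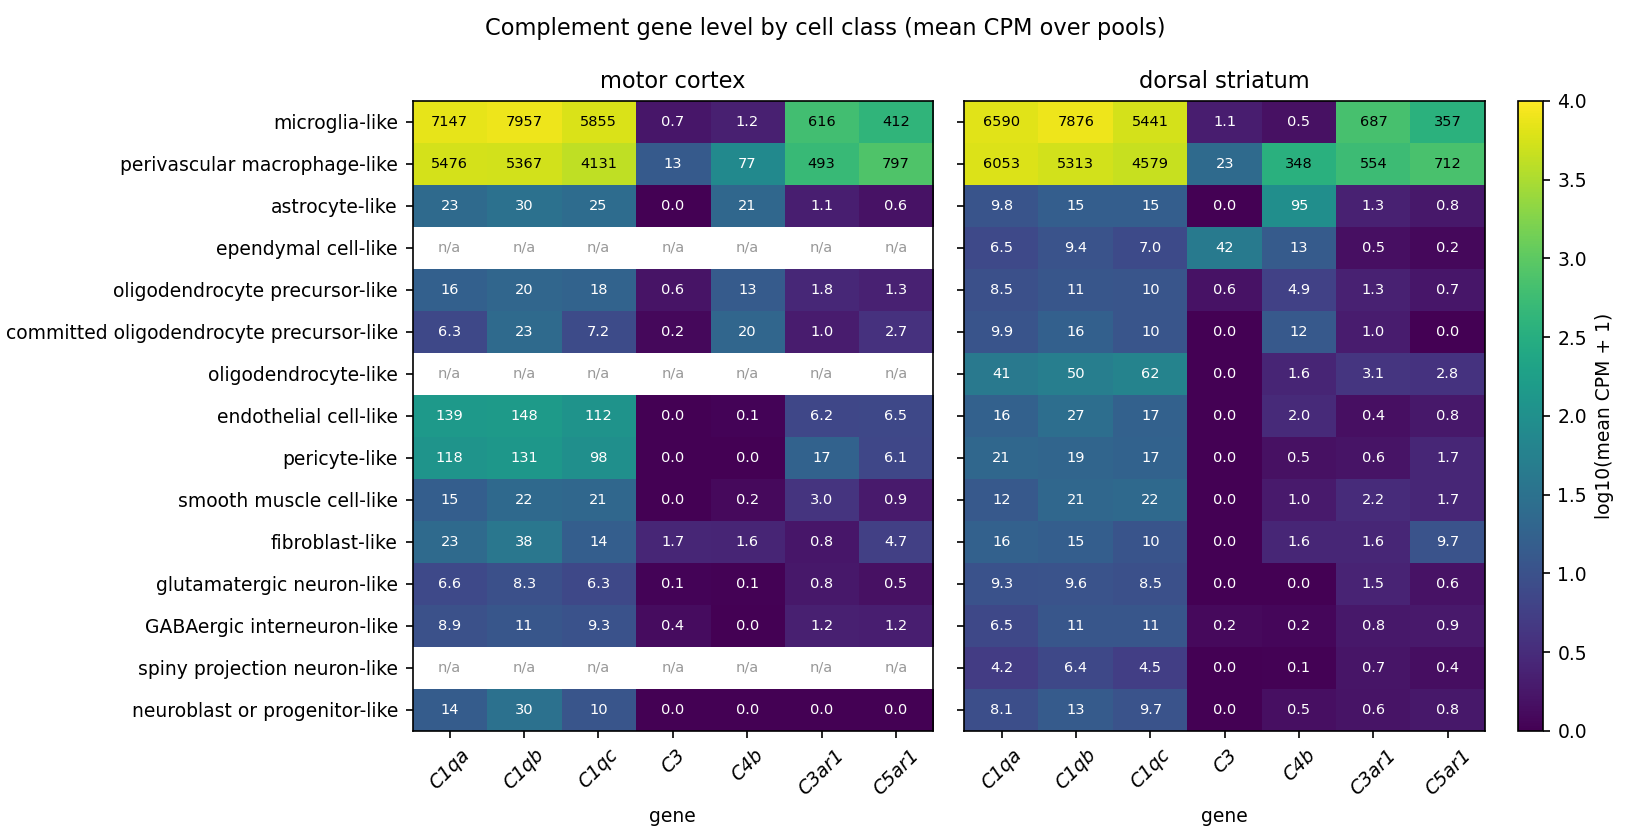
Mean CPM of the 7 genes (columns) in each cell class (rows) over the pools of motor cortex (left) and dorsal striatum (right); colour shows log10(mean CPM + 1) and n/a marks classes with under 4 pools of 20 cells. The C1q columns are high in microglia-like and perivascular macrophage-like cells, C3 is highest in ependymal-like cells (41.8 CPM) and C4b in striatal macrophages (348 CPM) and astrocyte-like cells (94.7 CPM).

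C1qb, C1qc and C1qa lie side by side on the minus strand of chromosome 4 within 18675 bases (GRCm38), with 3616 bases between C1qb and C1qc and 2851 between C1qc and C1qa. Because the 3 genes were read from the same cells, the bases upstream of 2 of them are shown; RefSeq promoter entries (GRCm38.p6) were matched for 5 of the 7 members, and C1qa and C4b had none in the table. Capitals mark GAGGAA, the core recognised by the myeloid factor PU.1, read on either strand (TTCCTC on the other), and the windows of 250 and 99 bases end at the RefSeq start, chr4:136886201-136886450 and chr4:136893066-136893164 on the minus strand.
C1qb: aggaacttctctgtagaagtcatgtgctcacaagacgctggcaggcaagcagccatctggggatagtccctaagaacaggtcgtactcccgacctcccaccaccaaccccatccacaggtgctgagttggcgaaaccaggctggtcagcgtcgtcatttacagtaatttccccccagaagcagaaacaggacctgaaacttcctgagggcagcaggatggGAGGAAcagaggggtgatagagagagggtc
C1qc: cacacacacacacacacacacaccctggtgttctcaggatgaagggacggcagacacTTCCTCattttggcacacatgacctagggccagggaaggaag
Each of these windows held 1 match. The same 6 letters occurred on either strand in the 250 bases before the start of 23.2% of 32851 RefSeq promoters, so a match is common, and none was found before C3, C3ar1 or C5ar1. A match describes letters and shows no binding.

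C1qa (chromosome 4, 136895917 to 136898803, ENSMUSG00000036887) was read at similar levels in microglia-like cells of both regions. In motor cortex the pools gave 6590 and 7268 CPM in control, 7448 and 5890 in early and 7830 and 7854 in late mice. In dorsal striatum they gave 6908 and 5808 CPM in control, 6236 and 6040 in early and 7135 and 7411 in late mice. The means were 7147 ± 770 CPM (SD, n = 6) in motor cortex and 6590 ± 650 CPM (SD, n = 6) in dorsal striatum, and the ranges of the regions overlapped. In each region both late pools lay above the 4 control and early pools, a difference that was not called in the stage test described further on. The order did not hold by library. Striatal late 1 was at 8141 CPM contralaterally and 5546 CPM ipsilaterally, the latter below every other striatal library. In motor cortex the contralateral library of early 1 (7650 CPM) lay above the ipsilateral library of late 1 (7580 CPM). How many of all genes have such an order of pools was not counted.

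C1qb (chromosome 4, 136880129 to 136886187, ENSMUSG00000036905) ran from 6989 to 8995 CPM (median 7886) in motor cortex microglia-like cells and from 7173 to 8996 CPM (median 7586) in striatal microglia-like cells. C1qc (chromosome 4, 136889804 to 136893065, ENSMUSG00000036896) ran from 4315 to 7698 CPM (median 6154) and from 4222 to 7762 CPM (median 4477). All 3 chains were found together in 98.7% to 99.9% (median 99.4%) of the microglia-like cells of a pool, at 17290 to 23960 summed C1q CPM. Detection of the 3 genes was thus near complete cell by cell, as it was in perivascular macrophage-like cells, where 96.2% to 100% of the cells of a pool held all 3.

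Perivascular macrophages are the resident macrophages along brain vessels. In these cells C1qa was at 5476 ± 473 CPM (SD, n = 6) in motor cortex and 6053 ± 978 CPM (SD, n = 6) in dorsal striatum. C1qb was at 5367 ± 524 and 5313 ± 499 CPM, below every microglia-like pool of the same region. The C1qa and C1qc ranges of both classes overlapped across pools. Within each pool, however, C1qc was lower in these cells than in microglia-like cells. C1qa was also lower within each pool except dorsal striatum control 1, at 7140 against 6908 CPM. Summed over the chains, C1q in perivascular macrophage-like cells was 66.9% to 84.9% of the level in microglia-like cells of the same pool. The 8 microglia markers, in contrast, had a median per pool of 2.51% to 10.2% of their microglial level in these cells.

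**Figure D2:**
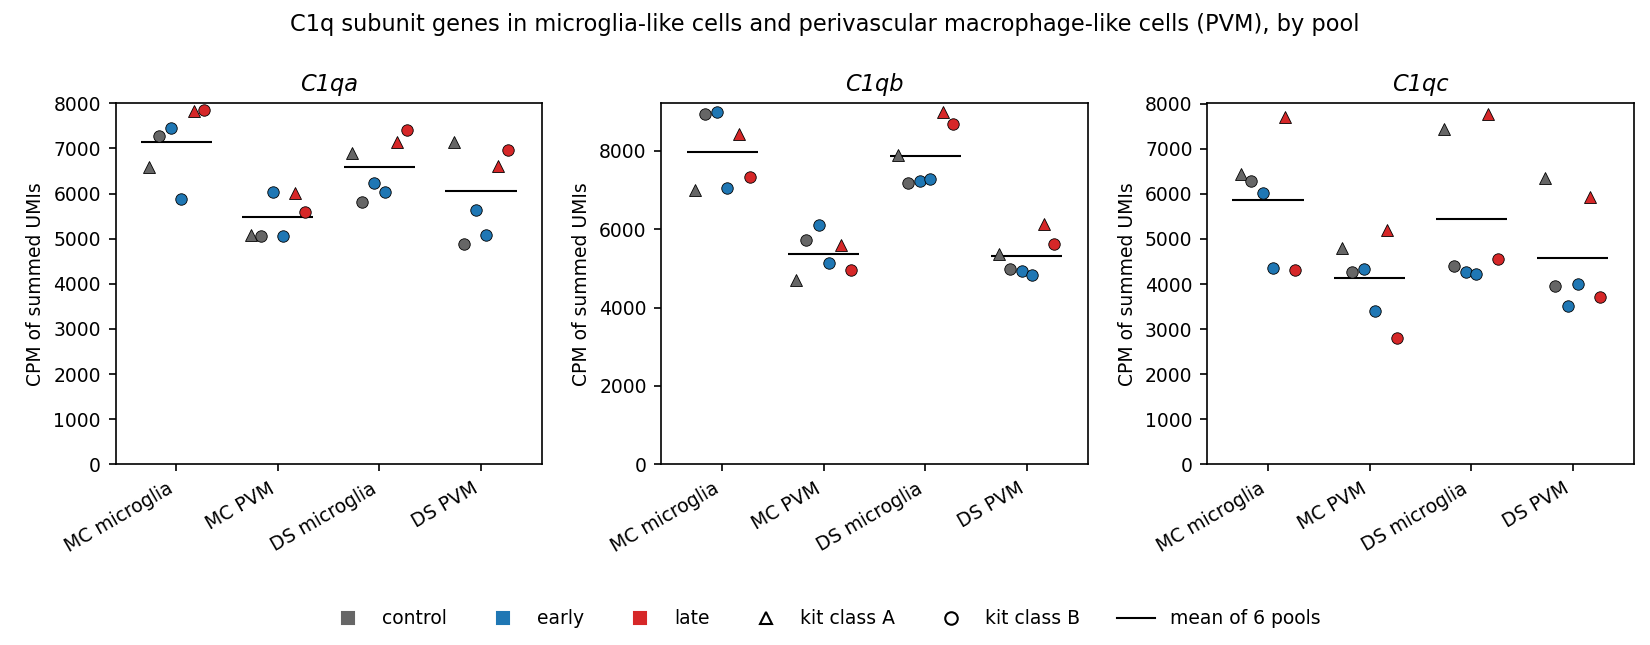
CPM of C1qa, C1qb and C1qc in each pool for microglia-like cells and perivascular macrophage-like cells (PVM) of motor cortex (MC) and dorsal striatum (DS); colour gives the stage, triangles are set A and circles set B libraries, and lines are means of 6 pools. Both late pools are the highest for C1qa in microglia-like cells of each region, an order that does not hold by library. For C1qc the triangles lie above the circles in both classes.

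C1qc separated by library set. In microglia-like cells it was at 6450 to 7762 CPM in the 4 set A pools and at 4222 to 6296 CPM in the 8 set B pools, and in perivascular macrophage-like cells at 4791 to 6361 against 2795 to 4343 CPM. The sets did not overlap in either class, while C1qa (6590 to 7830 against 5808 to 7854 CPM in microglia-like cells) and C1qb (6989 to 8996 against 7041 to 8995 CPM) overlapped. In astrocyte-like cells C1qc was at 24.5 to 54.3 CPM in set A and at 2.11 to 19.8 CPM in set B pools, while C1qa and C1qb overlapped there. The set entered every fit of stage and region as a covariate.

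Outside the 2 myeloid classes, C1q reads were set beside those of 8 microglia markers. In motor cortex glutamatergic neuron-like cells C1qa was found in 4.27% of 17578 cells (95% exact binomial interval 3.97 to 4.58%, median depth 7400 UMIs), and in 0.653% when every cell was thinned to 1000 UMIs, against 99.8% and 99.3% of motor cortex microglia-like cells (median depth 1820 UMIs). Summed C1q in those neurons was 0.0379% to 0.228% of the microglial level of the same pool, beside a range over pools of 0.0373% to 0.237% for the median microglia marker. Both ranges split by library set. Summed C1q was at 0.142% and 0.228% in the set A pools and at 0.0379% to 0.0781% in the set B pools. The median marker was at 0.1795% and 0.237% against 0.0373% to 0.0832%. All 8 markers were detected in all 6 pools of this class, and the C1q value lay between the lowest and the highest of them in each. Over the classes outside the myeloid ones, the median pool had a summed C1q of 0.0635% to 0.56% of the microglial level and a median marker of 0 to 0.437%. In most of these classes some markers were at 0, and in fibroblast-like cells the highest marker of a pool was at 55.6% to 102% of its microglial level, so the marker range is not read there. Whether the C1q reads of these classes came from the cells themselves was not tested, and intervals of this kind cover counting error only.

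Endothelial-like and pericyte-like cells of motor cortex control 1 stood apart. Their C1qa was at 583 and 509 CPM, and in the other 5 motor cortex pools at 8.93 to 149 and 16.1 to 112 CPM. In the same pool the summed C1q was 8.48% of the microglial level in endothelial-like cells and 7.71% in pericyte-like cells, beside 7.93% and 9.17% for the median microglia marker. These classes held 70 and 64 cells in that pool, with 81 and 206 C1qa UMIs. The depth of these cells was not compared with that of the same class in the other pools. Where control 2 was left out, control 1 stood alone for its stage. C1qa in pericyte-like cells was then lower in late than in control pools by 1.93 on the log2 scale. Without late 2 this difference was -1.94. C1qb, C1qc and C3ar1 were lower with it in both cases. Without late 2, late minus early was -3.39 for C1qb and -2.69 for C1qa. With all 6 pools no member was called in this class. Both of these fits take the spread of a stage with 1 pool from the stages that have 2, and the share of all genes called in them is not given.

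C4b (chromosome 17, 34728380 to 34743882, ENSMUSG00000073418), which feeds the classical and lectin convertase, was read from macrophages and glial cells. Striatal astrocyte-like cells held 66.6% of the 1052 striatal C4b UMIs and perivascular macrophage-like cells 19.2%. Of the 478 motor cortex C4b UMIs, oligodendrocyte precursor-like cells held 36.0%, perivascular macrophage-like cells 26.4%, astrocyte-like cells 14.6% and committed precursor-like cells 14.0%. These motor cortex shares rest on the early 2 pool, which gave 105 of the 172 UMIs of the precursor-like cells, 51 of the 67 of the committed precursor-like cells and 26 of the 70 of the astrocyte-like cells, but 17 of the 126 of the macrophages. In the other 5 pools together macrophages held more C4b UMIs than any of these 3 classes. Microglia-like cells had 4 C4b UMIs in 5028 striatal cells and 24 in 10177 motor cortex cells. The nearby copy C4a, 65209 bases away, was at no more than 3.1 CPM on average in any class, and reads that match both genes could have been assigned to either.

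In striatal astrocyte-like cells C4b was at 53.8 and 116 CPM in control, 111 and 87.7 in early and 90.8 and 109 in late pools. In motor cortex astrocyte-like cells it was at 0 and 7.26 CPM in control, 11.5 and 85.8 in early and 8.04 and 10.5 in late pools. Every striatal pool was above 5 of the 6 motor cortex pools, and motor cortex early 2 lay inside the striatal range. The early 2 pools of both regions share a batch label, as do the late 2 pools. Motor cortex was at 85.8 against 87.7 CPM in striatum in the former batch and at 10.5 against 109 CPM in the latter. The fit between regions held no batch term. C4b was lower in motor cortex by 2.71 on the log2 scale (SE 0.34, adjusted p 3.91e-07, edgeR quasi-likelihood test over 10180 genes), and by 3.45 without motor cortex early 2. Of the genes tested in astrocyte-like cells 31.1% were called between the regions, 16.5% lower and 14.6% higher in motor cortex, so a regional difference is common in this class.

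The astrocyte-like cells of striatum formed 2 clusters. In the cluster with high Gfap and Thbs4 (363 and 295 CPM, 1150 cells), genes known from astrocytes near the ventricle and white matter, C4b was at 134 CPM, and in the larger cluster (22.6 and 28.1 CPM, 2097 cells) at 80.8 CPM. The former was higher in 6 of 6 pools, at 56.2 to 181 against 36.6 to 95.3 CPM. The motor cortex astrocyte-like cells, a cluster of 2998 cells with Gfap at 96.7 and Thbs4 at 2.97 CPM, had 12.2 CPM of C4b. Clusters come from the same cells, so these levels are a description without a test.

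Perivascular macrophage-like cells carried the highest C4b level. In dorsal striatum it was at 318 and 413 CPM in control, 533 and 314 in early and 181 and 329 in late pools, and in motor cortex at 24.3 and 61.6, 133 and 114, and 70.7 and 58.6 CPM. The 6 pools of the regions did not overlap. The motor cortex level was lower by 2.12 on the log2 scale (SE 0.24, adjusted p 1.34e-05, edgeR, 2529 genes), where 2.57% of genes were called and 1.07% were lower in motor cortex. The 6 astrocyte markers summed to 60.5 to 369 CPM in these cells of motor cortex and to 9.87 to 571 CPM in dorsal striatum, with 3 to 5 and 1 to 5 of them detected, and their part in the difference was not tested. Each striatal pool held 30 to 66 of these cells. With the stricter cell filter too few were left for a fit of this class, and among the members C4b in astrocyte-like cells was then called (-2.92, adjusted p 9.16e-07, edgeR).

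**Figure D3:**
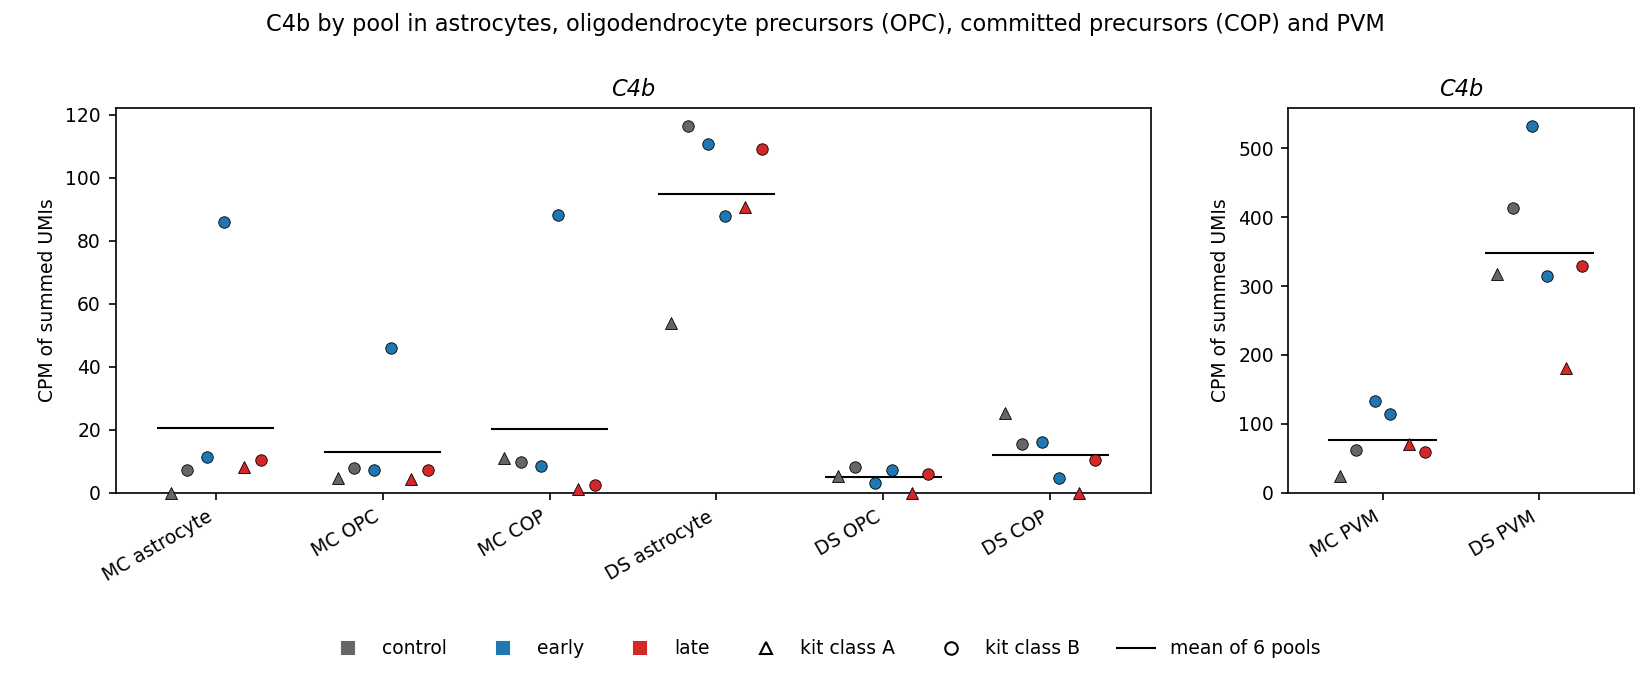
CPM of C4b in each pool of motor cortex (MC) and dorsal striatum (DS) for astrocyte-like cells, oligodendrocyte precursor-like cells (OPC) and committed precursor-like cells (COP) on the left and perivascular macrophage-like cells (PVM) on the right, on its own scale; colour gives the stage, triangles are set A and circles set B libraries, and lines are means of 6 pools. The pool at 85.8 CPM in MC astrocytes is early 2, which is also the highest MC pool in OPC (46.0 CPM) and COP (88.3 CPM).

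Motor cortex early 2 was high in C4b in 3 glial classes. Oligodendrocyte precursor-like cells were at 46.0 CPM in that pool and at 4.29 to 8.00 CPM in the other 5, and committed precursor-like cells at 88.3 CPM against 1.30 to 11.0 CPM. Both of its libraries showed this in precursor-like cells, with 60.2 CPM in the contralateral and 27.9 CPM in the ipsilateral library. The other early pool was at 7.25 CPM in precursor-like cells, within the range of the control and late pools. C4b in microglia-like cells, low throughout, was likewise highest in early 2, at 5.51 and 3.01 CPM in its libraries (7 and 3 UMIs). Microglia-like cells of early 2 also had the highest summed level of a list of 10 activation genes such as Tnf, Ccl3 and Fos, 49220 CPM against 22230 to 32230 CPM in the other motor cortex pools, and whether this bears on C4b was not tested.

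C3 (chromosome 17, 57203970 to 57228136, ENSMUSG00000024164) had only 256 UMIs in all, and 57.4% of them came from ependymal-like cells, the ciliated lining of the ventricles, which were found in the striatal dissections. Because C3 differed in its source from the C1q genes, the 250 bases before its start are shown (chr17:57228137-57228386, minus strand, GRCm38.p6, RefSeq). Capitals mark TTNCGNAA, a C/EBP motif read on both strands, where N is any base.
C3: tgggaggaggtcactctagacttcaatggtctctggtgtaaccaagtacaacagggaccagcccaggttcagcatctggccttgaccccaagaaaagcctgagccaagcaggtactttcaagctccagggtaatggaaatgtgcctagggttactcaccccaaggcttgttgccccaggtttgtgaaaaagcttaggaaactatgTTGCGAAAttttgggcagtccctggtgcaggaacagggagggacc
The window held 1 match, and 2.04% of the 32851 promoters hold this motif in the same stretch; C1qb, C1qc, C3ar1 and C5ar1 had none.

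In ependymal-like cells C3 was at 27.4 and 56.7 CPM in control, 39.8 and 26.8 in early and 51.4 and 48.9 in late pools, a mean of 41.8 ± 12.7 CPM (SD, n = 6). It was found in 108 of 960 cells, 11.2% (95% exact binomial interval 9.32 to 13.4%) at a median depth of 3044 UMIs, and 4.07% when thinned to 1000 UMIs. The control pools were the widest apart, and both late pools lay above both early pools. The pool values rested on 4 to 39 UMIs each.

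Perivascular macrophage-like cells gave 12.6 ± 7.69 CPM of C3 (SD, n = 6) in motor cortex, from 17 UMIs, and 22.9 ± 21.5 CPM in dorsal striatum, from 14 UMIs. Microglia-like cells gave 0 to 2.73 CPM, from 11 UMIs in 10177 motor cortex and 13 UMIs in 5028 striatal cells. No C3 UMI was found in 2998 motor cortex and 3247 striatal astrocyte-like cells, which allows up to 0.525 and 0.434 CPM at 3 counts per class, or up to 0.100% and 0.0924% of cells with a UMI. Astrocytes are often described as a source of C3 in disease, and at this depth C3 was not detected in them.

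C3ar1 (chromosome 6, 122847138 to 122856161, ENSMUSG00000040552), the C3a receptor, was read from the cells that carried C1q. Microglia-like and perivascular macrophage-like cells held 97.8% of its 21085 UMIs. In microglia-like cells it was at 455 and 697.2 CPM in control, 634 and 620 in early and 590 and 698.4 in late pools of motor cortex. In dorsal striatum the values were 450 and 921, 525 and 802, and 600 and 826 CPM. The stages overlapped in both regions, and in each the lowest pool was control 1, of set A; set A pools ran from 450 to 600 CPM and set B pools from 525 to 921 CPM. Perivascular macrophage-like cells were at 493 ± 66.1 and 554 ± 98.9 CPM (SD, n = 6), ranges that overlapped those of microglia-like cells.

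C5ar1 (chromosome 7, 16246743 to 16259540, ENSMUSG00000049130), the C5a receptor, had its highest level in perivascular macrophage-like cells. In motor cortex these cells were at 846 and 867 CPM in control, 788 and 579 in early and 1099 and 604 in late pools. Microglia-like cells were at 399 and 390, 415 and 401, and 508 and 362 CPM. The 2 classes did not overlap in motor cortex. In dorsal striatum their ranges did, with 306 to 1034 CPM (median 689) in perivascular macrophage-like cells and 180 to 587 CPM (median 357) in microglia-like cells. The former was still higher within each striatal pool and in the mean (712 ± 292 against 357 ± 133 CPM, SD, n = 6).

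Receptor reads were sparser per cell than C1q. Of the microglia-like cells of a pool, 45.9% to 81.3% had a C3ar1 UMI and 27.1% to 67.1% a C5ar1 UMI, both receptors were found in 14.2% to 56.5%, and neither in 8.04% to 40.0%. These shares follow the depth of the cells as well as the level. In motor cortex as a whole C3ar1 was found in 63.3% of microglia-like cells and in 43.4% at 1000 UMIs, against 0.40% and 0.214% of astrocyte-like cells.

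**Figure D4:**
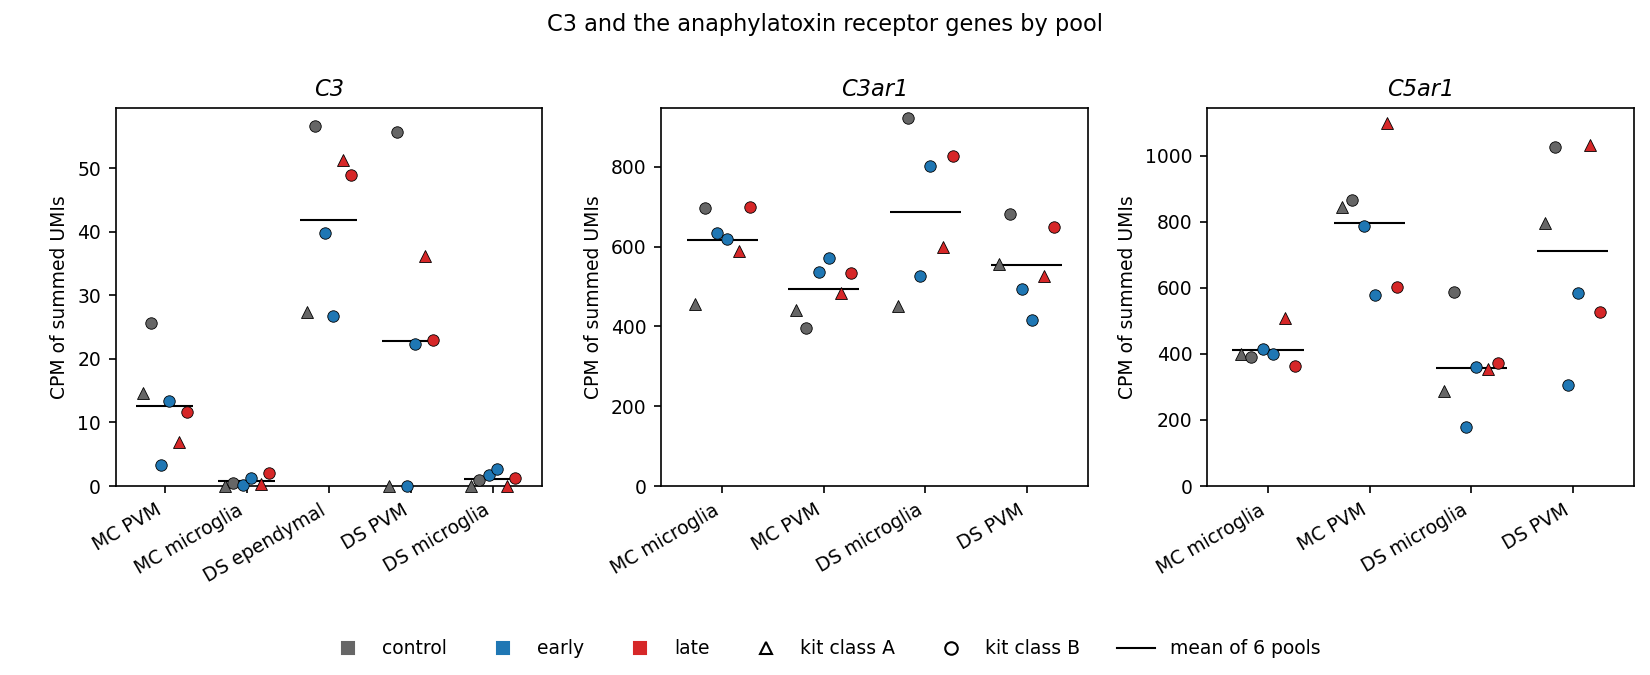
CPM of C3, C3ar1 and C5ar1 in each pool of motor cortex (MC) and dorsal striatum (DS) for ependymal-like, microglia-like and perivascular macrophage-like (PVM) cells; colour gives the stage, triangles are set A and circles set B libraries, and lines are means of 6 pools. C3 lies at 26.8 to 56.7 CPM in DS ependymal-like cells and under 3 CPM in microglia-like cells. C5ar1 is higher in PVM than in microglia-like cells of the same pool, and the ranges of the classes overlap in DS.

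Within microglia-like cells C3ar1 was higher and C1qa lower in the cluster with the higher activation list in each of 3 pairs of clusters, while C5ar1 differed between the pairs. In each region a cluster with high and a cluster with low levels of the list were made up mainly of set B cells, with 3.41% and 2.65% of set A cells in motor cortex and 1.95% and 0.455% in dorsal striatum. In motor cortex C3ar1 was higher in the high cluster in 5 of 5 pools (615 to 884 against 543 to 608 CPM) and C5ar1 in 5 of 5 (447 to 681 against 276 to 397 CPM), whereas C1qa was lower in 5 of 5 (4471 to 7050 against 7112 to 8297 CPM). In dorsal striatum C3ar1 and C5ar1 were higher in 4 of 4 pools (868 to 1064 against 352 to 824, and 296 to 692 against 118 to 512 CPM) and C1qa was lower in 4 of 4 (4890 to 6887 against 6471 to 8493 CPM). C1qc was lower in 5 of 5 and 3 of 4 pools and C1qb in 3 of 5 and 1 of 4. Motor cortex had a further pair made up mainly of set A cells (94.6% and 95.9%), with 3445 and 1879 of the 10177 cells. There the cluster with the higher list had the higher C3ar1 in 4 of 4 pools (584 to 745 against 414 to 562 CPM) and the lower C1qa in 4 of 4 (4123 to 6735 against 7312 to 8963 CPM), with C1qc lower in 4 of 4 and C1qb in 3 of 4. C5ar1 was higher in it in 1 of 4 pools (275 to 503 against 310 to 608 CPM), the opposite of the set B pairs in the other 3. Of these 4 pools, control 2 and late 2 were of set B, with 29 to 36 cells in each cluster. They went opposite ways, at 466 against 608 CPM and 503 against 310 CPM. The set A pools were at 275 against 423 CPM in control 1 and 363 against 588 CPM in late 1. In striatum the set A cells lay mainly in 1 cluster (92.1% of its 1512 cells), which has no such pair. These clusters were formed from the same cells, so no test is given.

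The genes most like each member were sought over 27 points of class and region among 9971 genes outside the complement lists that reached 50 CPM, by Pearson correlation of log2(CPM + 1), as a description over points that share libraries. C1qa was nearest to Fcer1g (r = 0.99), Ccl3 and Tyrobp, C1qb to Ccl4, Ccl3 and Tyrobp, and C1qc to Ccl3, Tyrobp and Fcer1g. C3ar1 was nearest to Ptprc (r = 0.99), Cd180 and Cd33, and C5ar1 to Gm44545 (r = 0.98), Rac2 and Fcer1g, with Gm44545 and Rac2 highest in perivascular macrophage-like cells. C3 was nearest to Dnah2 (r = 0.91), Dnajb13 and Traf1, each highest in ependymal-like cells. C4b was less closely matched, with Apoe at r = 0.80, Nadk at 0.77 and Vav3 at 0.76.

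Of the 50 other complement genes on fixed lists, some had sources of their own. Among 9 recognition genes, 3 reached 10 CPM in a class, with Colec12 at 1401 ± 604 CPM in motor cortex fibroblast-like cells and Fcna, a ficolin, at 237 ± 180 CPM in striatal perivascular macrophage-like cells (SD, n = 6). Among 7 proteases 3 did, with C1s1, the protease of the C1 complex that cleaves C4, at 112 ± 34.0 CPM in striatal smooth muscle-like cells and Masp1 at 57.8 ± 14.4 CPM in striatal GABAergic interneuron-like cells. Among 5 further convertase components 3 did, C2 at 84.9 ± 36.9 and Cfp (properdin) at 221 ± 39.2 CPM in motor cortex perivascular macrophage-like cells and Hc, which encodes C5, at 38.1 ± 10.9 CPM in ependymal-like cells. None of the 6 terminal components did. The 2 highest in the mean over classes were C8g, at 8.93 ± 1.37 CPM in ependymal-like cells, and C7, at 0.417 ± 1.02 CPM in motor cortex committed precursor-like cells.

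Among 7 fluid-phase regulators 5 reached 10 CPM in a class. Vtn was at 13130 ± 1825 CPM (SD, n = 4) in striatal pericyte-like cells and Clu at 3368 ± 801 CPM (SD, n = 6) in striatal astrocyte-like cells. All 8 membrane regulators reached 10 CPM in a class, among them Susd4 at 306 ± 112 CPM in motor cortex committed precursor-like cells and Csmd3 at 275 ± 38.2 CPM in precursor-like cells. Of 8 receptors 5 did, with Lrp1 at 888 ± 204 CPM in motor cortex fibroblast-like cells and Cd93 at 478 ± 209 CPM in endothelial-like cells. Ependymal-like cells thus held the highest class mean of C3, Hc, C8g and also of Cpn1 (87.2 ± 17.3 CPM), which encodes a protease subunit that inactivates C3a and C5a, and Cd55 (80.7 ± 16.9 CPM), which dissociates convertases.

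Training was compared between stages within each region, with library set as a covariate. None of the 213 member tests, over 23 classes by region and 3 comparisons, passed an adjusted p of 0.05 (edgeR quasi-likelihood test), 21 had an unadjusted p under 0.05, and DESeq2 also called 0. Over all genes 0.0329% of tests were called, 0.00335% in microglia-like and 0.0746% in perivascular macrophage-like cells. The 21 tests are not set beside the share of all genes under that unadjusted threshold and are not read as a result about the members. The members' median log2 change was 0.02 beside 0.00 over all genes. The p-values measure the spread between pools of 2 mice.

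In microglia-like cells no C1q change between stages passed the test. C1qa late minus control was 0.25 on the log2 scale (SE 0.22) in motor cortex and 0.14 (SE 0.32) in dorsal striatum, and early minus control was 0.03 (SE 0.24) and -0.13 (SE 0.36). Between the control and late pools that share a batch label, the log2 ratio of C1qa was 0.25 in motor cortex and 0.05 in dorsal striatum, and between the control and early pools that do, 0.04 and 0.10.

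The members with the lowest unadjusted p in these myeloid cells were C4b and C5ar1. C4b in motor cortex perivascular macrophage-like cells was higher in both early pools (133 and 114 CPM) than in both control pools (24.3 and 61.6 CPM), a log2 difference of 1.45 (SE 0.46, p 0.00962, adjusted p 0.837, edgeR). These values rest on 41 and 17 UMIs in the early and 5 and 12 UMIs in the control pools. By library early 1 was at 192 CPM contralaterally and 72.2 CPM ipsilaterally, the latter close to the left library of control 2 (69.3 CPM). The pools that share a batch differed by 1.11. C5ar1 in striatal microglia-like cells was 180 and 360 CPM in early against 288 and 587 CPM in control pools, which overlap, a log2 difference of -0.995 (SE 0.37, p 0.0206, adjusted p 1.00, edgeR).

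In the batch that holds striatal early 1 and control 2, C5ar1 differed by -1.70 in microglia-like cells and by -1.75 in perivascular macrophage-like cells (306 against 1027 CPM), and C3ar1 by -0.81 and -0.46. Over all 6 pools C5ar1 in striatal perivascular macrophage-like cells differed by -0.86 (SE 0.39, adjusted p 0.817, edgeR), and by 0.18 without control 2. The activation list in microglia-like cells differed the same way, at 21160 CPM in early 1, the lowest of the 6 striatal pools, and 36470 CPM in control 2. Control 1 had 24350 CPM of the list with C5ar1 at 288 CPM. Late 1, however, had 36000 CPM with C5ar1 at 355 CPM, and early 2 had 37470 CPM with 328 and 387 CPM in its libraries. The part of the list in these values was not tested. Without early 2, C5ar1 early minus control was -1.73 in microglia-like cells and -1.45 in perivascular macrophage-like cells. Each value then rests on 1 early pool that is assumed to vary like the pools of the other stages.

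C3 in ependymal-like cells differed between late and early pools by 0.72 (SE 0.35, p 0.0537, adjusted p 0.819, edgeR), with both late pools (51.4 and 48.9 CPM) above both early pools (39.8 and 26.8 CPM) and the control pools on either side (27.4 and 56.7 CPM). C4b in striatal astrocyte-like cells differed from control by -0.10 (SE 0.22) in early and 0.19 (SE 0.22) in late pools. C4b in motor cortex astrocyte-like cells did not pass the filter on low counts. Without the filter its early minus control difference was 2.71 (SE 0.64, adjusted p 0.0303, edgeR), which rests on the early 2 pool at 85.8 CPM beside 11.5 CPM in early 1. C4b in motor cortex oligodendrocyte precursor-like cells was likewise called without the filter (1.77, adjusted p 0.0323, edgeR), as was C1qb in motor cortex glutamatergic neuron-like cells (1.08, adjusted p 0.0177, edgeR). The latter was at 7.67 and 5.20 CPM in early and 9.09 and 3.90 CPM in control pools, which overlap. How many of all genes were called without the filter is not given.

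Without early 1, which leaves early 2 alone for its stage, C4b differed in 3 motor cortex glial classes. Early minus control was 3.76 on the log2 scale in astrocyte-like, 2.59 in oligodendrocyte precursor-like and 3.1 in committed precursor-like cells. Late minus early was -2.62 and -5.21 in the 2 precursor classes. Early 2 is the pool that stood above the other motor cortex pools in these classes, and its spread is taken from the other stages. These values describe that pool and not the early stage, and the share of all genes called in such a fit is not given. Without striatal control 2, early minus control was 3.39 for C1qc in GABAergic interneuron-like cells and 1.81 for C1qb in neuroblast or progenitor-like cells. The 1 control pool left, of set A, was not below the early pools there: C1qc was at 15.0 CPM against 2.99 and 7.89 CPM, and C1qb at 14.1 against 13.3 and 11.9 CPM. In that fit the library-set term comes from the late pools alone and the control spread from the other stages, and the sign of both differences rests on that term.

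**Figure D5:**
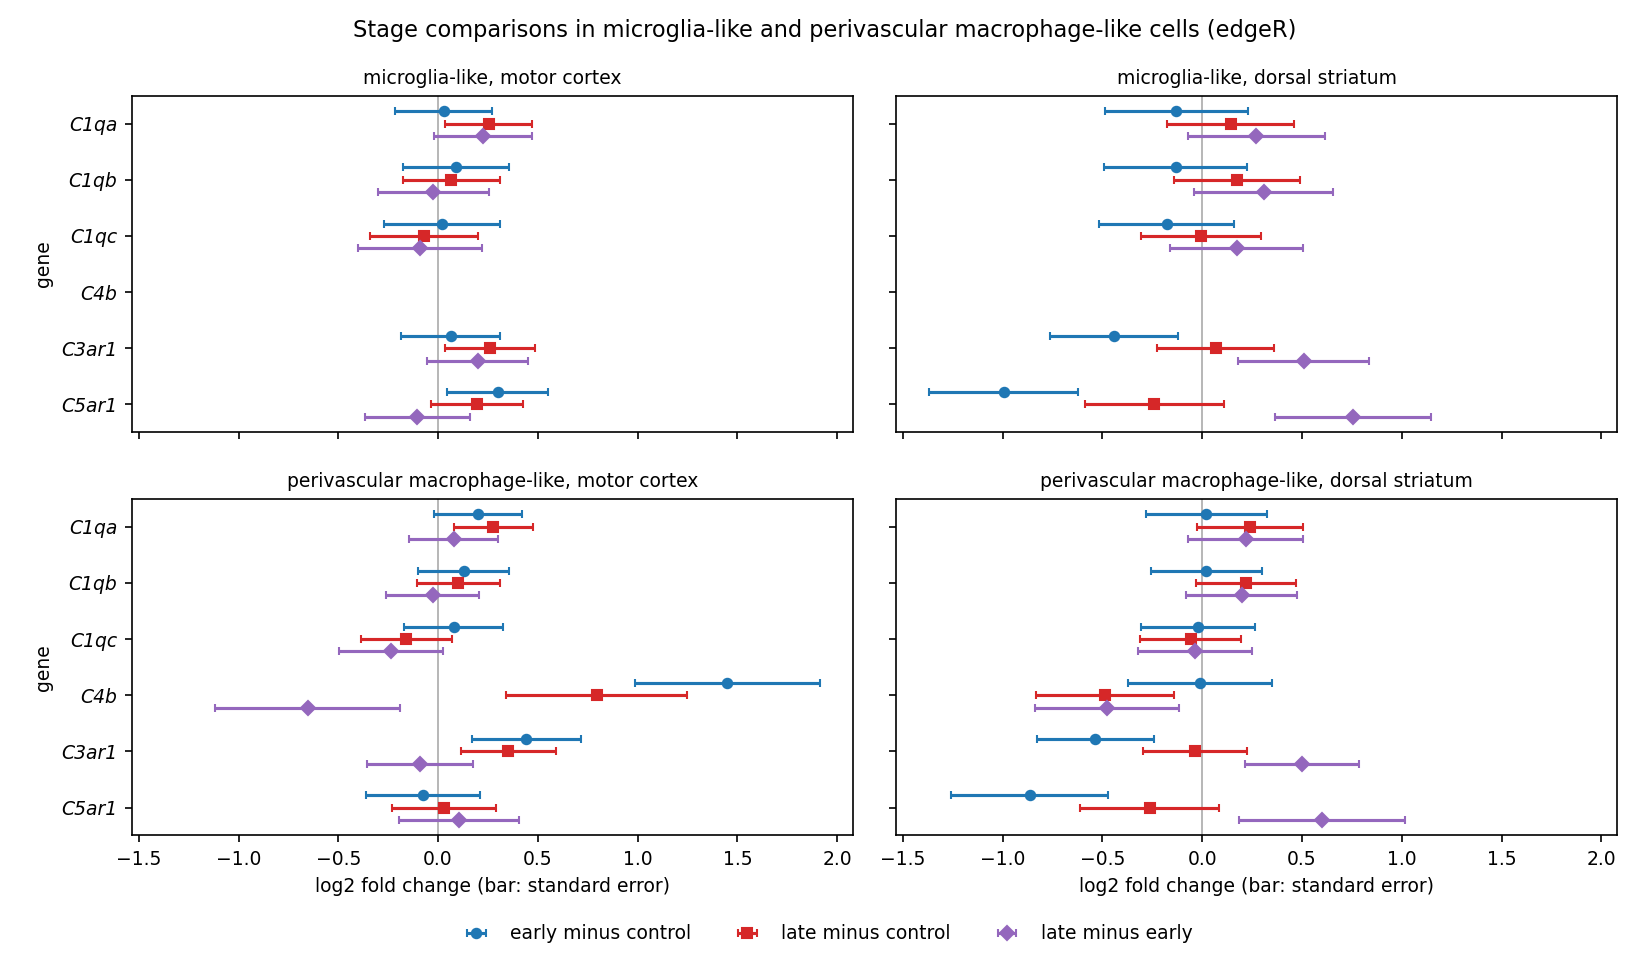
Log2 fold changes between stages (points) from edgeR for 6 members (rows) in microglia-like (top) and perivascular macrophage-like cells (bottom) of motor cortex (left) and dorsal striatum (right). Bars are standard errors derived from the fold change and the F statistic. C4b was too low to test in microglia-like cells. C5ar1 in DS microglia-like cells is lowest in early minus control (-0.995), and none of the changes passed the adjusted threshold.

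Whether the regions differed in their stage changes was tested in a fit of all 12 pools. None of 64 member tests passed (edgeR), 7 had an unadjusted p under 0.05 and DESeq2 called 0. Over all genes 0.0138% of tests were called, and the share of all genes under the unadjusted threshold is not given. The lowest adjusted p belonged to C4b in astrocyte-like cells, whose early change was 2.69 higher in motor cortex on the log2 scale (SE 0.77, adjusted p 0.528, edgeR). That value depended on the pools used: it was 0.94 without motor cortex early 2, 7.77 without motor cortex control 2 and 3.86 without motor cortex early 1, and in the last case it passed (adjusted p 0.000586, edgeR), with early 2 alone for its stage and assumed to vary like the other groups.

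Between the regions, 5 of 28 member tests passed, C4b in the 2 classes above and the 3 C1q genes in astrocyte-like cells. Over all genes 11.1% of region tests were called, with 31.1% in astrocyte-like and 2.57% in perivascular macrophage-like cells, so the 3 C1q calls fell in a class where such calls are common. The astrocyte-like values of C1qa were 43.4 and 8.71 CPM in control, 16.4 and 19.8 in early and 39.1 and 10.5 in late pools of motor cortex, and 27.7 and 3.61, 4.64 and 6.39, and 9.81 and 6.86 CPM in dorsal striatum. The regions overlapped. The log2 differences, motor cortex minus striatum, were 1.08 for C1qa (SE 0.30, adjusted p 0.00623), 0.96 for C1qb (SE 0.25, adjusted p 0.0035) and 1.03 for C1qc (SE 0.27, adjusted p 0.00425, edgeR).

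These astrocyte-like levels were 0.134% to 0.705% (median 0.374%) of the microglial level in motor cortex, beside a median microglia marker of 0.0779% to 0.503% (median 0.165%). In dorsal striatum they were 0.0843% to 0.403% (median 0.144%), beside 0.0679% to 0.564% (median 0.136%), and up to 4 of the 8 markers were at 0 in a pool. Microglia-like cells were 21.2% of motor cortex and 9.93% of striatal cells, and what part this has in the difference was not tested. The 3 calls were lost without the library set as covariate (adjusted p 0.0872, 0.0708 and 0.25), with doublets kept (0.145, 0.0942 and 0.258) and with the stricter cell filter (0.925, 0.11 and 0.128, edgeR).

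With doublets kept 7 tests passed between the regions, of which the 2 of C4b were among the 5 above. The other 5 were C1qa, C1qb and C1qc in oligodendrocyte precursor-like cells (0.92 to 1.06), C1qc in endothelial-like cells (1.61) and C1qa in fibroblast-like cells (2.19). In endothelial-like cells, where motor cortex control 1 stood apart, C1qa was 2.13 higher in motor cortex and C1qb 1.65 higher with all pools (adjusted p 0.102 and 0.11, edgeR). C1qa was called there without motor cortex control 2, early 1 or late 1 or striatal early 1 (2.40 to 3.01), and C1qb without motor cortex control 2 or late 1 or striatal early 1 (1.88 to 2.02). Shares of all genes called in these fits and with doublets kept are not given.

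In microglia-like cells no member was called between regions (adjusted p of 0.824 or more, edgeR), and 1.08% of genes were called in that class. The log2 differences were 0.08 for C1qa (SE 0.13), -0.01 for C1qb (SE 0.14), 0.11 for C1qc (SE 0.15), -0.17 for C3ar1 (SE 0.15) and 0.22 for C5ar1 (SE 0.22). In perivascular macrophage-like cells those 5 genes differed by -0.16 to 0.20, with adjusted p of 0.725 or more (edgeR). C4b was the member called between regions in these macrophages.

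Of the other complement genes, 11 of 77 tests passed between the regions, in astrocyte-like, GABAergic interneuron-like and smooth muscle-like cells, where 31.1%, 33.3% and 1.02% of all genes were called. In astrocyte-like cells Ptx3, a pattern-recognition pentraxin, was lower in motor cortex by 5.41 (0.238 ± 0.368 against 23.4 ± 10.1 CPM, adjusted p 4.39e-09), Csmd1 by 2.36 and Clu by 0.48, while Masp1 was higher by 1.28 (43.4 ± 10.3 against 17.3 ± 4.74 CPM, SD, n = 6, adjusted p 2.16e-05, edgeR). Masp1 went the other way in GABAergic interneuron-like cells, lower in motor cortex by 1.74 (18.5 ± 2.24 against 57.8 ± 14.4 CPM). In those cells Csmd1, Csmd2, Cd55 and Cd59a were also lower and Susd4 was higher by 0.90, and in smooth muscle-like cells Vtn was higher by 0.79.

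The labels name the hemispheres of trained mice contralateral and ipsilateral, and each such pair from the same mice was compared, with 4 pairs per region. Of 54 member tests 1 passed (edgeR), C1qc in motor cortex oligodendrocyte precursor-like cells, beside 0.0557% over all genes and 0.0585% in that class. It was lower contralaterally in 4 of 4 pools, at 21.8 against 54.3 CPM in late 1, 8.03 against 13.4 in early 1, 9.39 against 9.95 in early 2 and 3.48 against 7.70 in late 2. The log2 difference was -0.98 (SE 0.23, adjusted p 0.0443), and C1qa and C1qb differed by -0.53 and -0.39 (adjusted p 0.908 and 0.983, edgeR). Summed C1q in this class was at a median of 0.189% of the microglial level in motor cortex, beside 0.194% for the median microglia marker. The call was lost with RLE normalization factors (adjusted p 0.0535), with DESeq2 (adjusted p 1.00) and with stage and set in place of the pool (adjusted p 1.00, edgeR). It was also lost with the stricter cell filter (adjusted p 0.812) and with doublets kept (-0.34, adjusted p 1.00, edgeR). It was kept without early 2 (adjusted p 0.00747) and lost without early 1 (0.0943), late 2 (0.0633) or late 1, where the difference was -0.55 (adjusted p 0.997, edgeR). In microglia-like cells no member passed.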

How the data were processed

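Single-cell libraries of 12 pools of 2 mice were read from deposited UMI counts per gene and barcode (Cell Ranger 3.1.0 and GRCm38/mm10 per the submitters' processing notes; the file headers give software version 3.0.2). Deposited counts were used without rescaling. Barcodes were kept from 500 detected genes and 1000 UMIs upward, with no more than 20% of UMIs mitochondrial; called doublets were removed, and cells were clustered per region in scanpy 1.11.5 (2000 variable genes, 40 components, 20 neighbours, Leiden resolution 1.5) without complement genes. Clusters were named from at least 3 markers, by rules adjusted after the clusters were seen. UMIs were summed per pool and class with at least 20 cells and tested with edgeR 4.0.16 (TMM, filterByExpr, quasi-likelihood, Benjamini-Hochberg over all genes of a class and comparison, threshold 0.05), with library set, called from shared barcodes, as a covariate, and the pool as a block for hemispheres. The code of the tests was run on counts simulated with 1 fixed dispersion for all genes and without library-set, batch or single-pool effects. That run cannot show how the tests behave where such effects are present. Standard errors (SE) of edgeR fold changes were derived as the absolute log2 fold change divided by the square root of the quasi-likelihood F statistic. Intervals are 95% exact Clopper-Pearson intervals, and the floor is 3 counts. Libraries of 5260446 to 30470621 UMIs set the precision.

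The 7 genes, the lists and the tests were chosen with earlier results of these data known. The members are described in each class, and of the other complement genes those called in a comparison and the 2 highest of a described list are named; Hc, Cpn1 and Cd55 were added after their values were seen. Replicate numbers follow accession order and were not chosen as pairs. Within a region control 1 and late 1 share a batch label, as do control 2 and early 1. Early 2 shares its batch label between the regions, and so does late 2. Alternatives were RLE factors, DESeq2 1.42.0, no low-count filter, a stricter cell filter (1000 genes, 2000 UMIs, 10% mitochondrial), doublets kept, no library-set covariate, a replicate block, clustering resolution 1.0, and each pool left out in turn. The result of a marker gene is not reported here.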

Additional observations from a re-analysis of the deposited data

Results flagged for a closer look

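Of 79 groups of pools, 15 held a pool whose gap to the nearest other pool was large against the range of the group. Chance would flag about 1 in 20 groups if they were independent and normally spread. These groups share pools and some rest on few UMIs, so the 15 are not read against that rate. Motor cortex control 1 stood above the other 5 pools in endothelial-like cells for C1qa (583 CPM), C1qb (640 CPM) and C1qc (475 CPM). The same pool stood above the others in pericyte-like cells for C1qa (509 CPM), C1qb (586 CPM), C1qc (450 CPM) and C3ar1 (86.5 CPM).

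Motor cortex early 2 stood above the other motor cortex pools for C4b in astrocyte-like cells (85.8 CPM, 26 UMIs), committed oligodendrocyte precursor-like cells (88.3 CPM, 51 UMIs) and oligodendrocyte precursor-like cells (46.0 CPM, 105 UMIs). Motor cortex late 1 was highest for C5ar1 in microglia-like cells (508 CPM, next 415 CPM) and for C1qb in smooth muscle-like cells (66.4 CPM, next 24.6 CPM). Dorsal striatum late 1 was highest for C1qa (59.7 CPM, 5 UMIs) and C1qc (47.7 CPM, 4 UMIs) in fibroblast-like cells and for C1qb (42.7 CPM, 16 UMIs) in committed precursor-like cells.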

How the results depend on the processing

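Member calls by stage, 0 as reported, became 3 without the filter on low counts, 3 with doublets kept (C1qa and C1qb in fibroblast-like cells) and 0 to 6 when a pool was left out; with a replicate block, which pairs pools only by number, the count was 0. Calls by region, 5 as reported, became 10 without the filter, 7 with doublets kept (2 of them among the reported 5), 5 to 7 when a pool was left out, 1 with the stricter cell filter (C4b in astrocyte-like cells) and 2 without the library-set covariate (C4b in both classes). Calls of region by stage, 0 as reported, became 3 without the filter, 2 with doublets kept (fibroblast-like cells) and 0 to 2 when a pool was left out (C4b in astrocyte-like or C1qa and C1qc in endothelial-like cells). Calls by hemisphere, 1 as reported, became 0 with RLE factors, DESeq2, the stricter filter or stage and set in place of the pool, 4 with doublets kept (other tests than the 1 reported) and 0 to 1 when a pool was left out. These counts are not set beside the share of all genes called under the same alternative, and they are not read as a result about the members. The mean share of C1q UMIs in both myeloid classes, 97.9%, was 92.7% with the stricter filter and 95.4% with doublets kept.

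These uncalled differences changed sign. C1qb in microglia-like cells between regions (-0.01) was 0.078 without the filter, 0.30 with stricter cells, 0.12 with doublets kept and -0.057 to 0.060 when a pool was left out. C3ar1 there was 0.027 with stricter cells. C5ar1 in striatal macrophages, early minus control, was -1.45 to 0.18 when a pool was left out, the latter without control 2. C1qa in striatal microglia-like cells, late minus control, was -0.55 with stricter cells, -0.23 to 0.42 when a pool was left out, and below 0 without control 2 or late 2. C3 in ependymal-like cells, late minus control, was -0.26 with stricter cells and -0.15 to 1.01 when a pool was left out, and below 0 without control 1 or late 1. The causes were not tested. C3 and C4b rest on few UMIs, and 2 pools per stage limit every stage test.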
